A study of Homo sapiens with 2 samples.

Results

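The genes described here are the aminoacyl-tRNA synthetases of the cytosol and of mitochondria, together with the 3 scaffold proteins that hold some of them in a complex. They were chosen by symbol from the first column of the deposited table, and all 39 of the listed names were found among its 14914 features: 20 genes for cytosolic enzymes, 16 for mitochondrial enzymes (those whose names end in 2) and 3 for scaffolds. RNA came from HUH7, an established line of human hepatocellular carcinoma, with no treatment, time point or genetic change given in the labels. The study made 1 library of RNA recovered with CSTF2 by RNA immunoprecipitation (IP) and 1 library of input RNA (Input). A control immunoprecipitation was not used here. CSTF2 is the subunit of cleavage stimulation factor that contacts RNA and takes part in making the 3' ends of mRNAs. The series asks which RNAs of the line it binds.

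An aminoacyl-tRNA synthetase joins an amino acid to its tRNA, the step that sets the meaning of the genetic code. The enzymes fall into class I and class II by the fold of their catalytic domain, and most amino acids have a cytosolic and a mitochondrial enzyme from separate nuclear genes. GARS and KARS each supply both compartments, EPRS carries the glutamyl and the prolyl activity in 1 chain, and several cytosolic enzymes sit with the scaffolds AIMP1, AIMP2 and EEF1E1 (also called AIMP3) in the multisynthetase complex. Many cytosolic synthetase genes are known targets of ATF4, the transcription factor of the amino acid stress response.

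The assigned depth was 3220045 IP and 9517885 Input reads. The members took 3791 and 8866 of these reads, and 5 of the 39, all mitochondrial (CARS2, FARS2, MARS2, PARS2 and VARS2), had a mean under 1 RPKM, the filter used for counts. Because each group is 1 library, no difference has a replicate check. The 95% intervals, exact except where named Wilson, cover counting error only, and they treat reads as independent molecules, which PCR copies without molecular identifiers are not. Of the 9 hepatocyte genes looked up, all were listed, with ALB at 200.3 RPKM (IP) and 254 RPKM (Input). By Input level they ran from TTR at 1.43 RPKM (IP) and 4.25 RPKM (Input) to FGB at 353 and 311 RPKM. The endothelial markers PECAM1 and VWF were not among the listed names. Of the stromal markers, LUM had 50 IP and 208 Input reads (5.16 and 7.27 RPKM) and COL1A2 58 and 130. Of the blood markers, CD68 had 22 IP and 12 Input reads and LYZ 4 and 26, with PTPRC and HBB not listed. Genes coded by mitochondrial DNA made up 61.8% (IP) and 61.6% (Input) of reads, and scaling to the rest shifts each log2 ratio, taken without a pseudocount, by 0.01.

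CSTF2 acts close to the poly(A) signal, so mRNA ends are shown first for the called genes AARS and VARS, for AARS2, the highest mitochondrial enzyme, for IARS and FARSA, the next cytosolic enzymes, for TARS, the lowest cytosolic enzyme, and for the scaffolds. Each is the last 30 bases of the reference mRNA (GENCODE v29, GRCh38), written 5′ to 3′ on the strand of the gene, in lower case with the AATAAA signal in capitals. The CSTF2 site itself is known to lie past the cleavage point, in sequence that is not part of the mRNA and was not analysed here.
AARS (chr16:70252295-70252324, minus strand): tctgtagAATAAAtgctgtggctcctgctg
VARS (chr6:31777518-31777547, minus strand): atggcagcAATAAAatattttcccacaaaa
AARS2 (chr6:44299654-44299683, minus strand): ccctgctggtttgttgatgaattgagcaac
IARS (chr9:92210207-92210236, minus strand): ctagacatctAATAAAacttctttccaaaa
FARSA (chr19:12922480-12922509, minus strand): tattgtctAATAAAgtgggcagttgccccc
TARS (chr5:33469510-33469539, plus strand): ttAATAAAggagctaagatctttaatcata
AIMP2 (chr7:6023805-6023834, plus strand): caagtgtcAATAAAagcatcatgtaattta
AIMP1 (chr4:106349191-106349220, plus strand): tcattcttttgggAATAAAtacttctggtg
EEF1E1 (chr6:8079395-8079424, minus strand): tgtgagctagtaaatgtggttgaaaaaata

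AARS2, among the highest, and EEF1E1, the lowest past the filter, had neither AATAAA nor the variant ATTAAA in the last 40 bases of the reference mRNA, searched on the mRNA strand only. Over all 39 members, filtered or not, 23 (59.0%) had AATAAA there and 6 (15.4%) had ATTAAA alone. Of the 34 members past the filter, 22 had AATAAA and 4 had ATTAAA alone. The shares were 62.8% and 14.2% of 7595 protein-coding genes past the filter. FARS2, under the filter and with neither signal, has a reference mRNA with a 3' UTR of 0 bases. AATAAA was present in 15 of the 20 cytosolic and 6 of the 16 mitochondrial mRNAs. A reference mRNA need not end where the mRNA of this line ends, and a match is a description of the annotation only.

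In the Input, the cytosolic enzymes ranged from 1.01 RPKM (WARS) to 22.1 RPKM (NARS), with a median of 6.87, and the mitochondrial enzymes from 0.139 RPKM (MARS2) to 8.12 RPKM (IARS2), with a median of 0.983. NARS, the asparaginyl enzyme, led the Input, and its counting interval (20.7 to 23.7 RPKM) lay above that of FARSA, the α subunit of the phenylalanyl enzyme (16.1 to 19.6). KARS at 14.7 RPKM and GARS at 13.5 RPKM came next and their intervals overlapped. AARS at 10.5, AIMP1 at 10.3, RARS at 10.3, AIMP2 at 9.66 and DARS at 9.24 RPKM could not be ordered by counting error. In the IP, FARSA at 27.5 RPKM, NARS at 25.1 RPKM and AARS at 23.8 RPKM were the highest of the 39, again with overlapping intervals. These levels are per counted length, which is the union of all annotated exons for 35 of the 39 genes. The reference mRNA makes up as little as 18.0% of that length (CARS2), a denominator that is the same in both libraries.

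**Figure D1:**
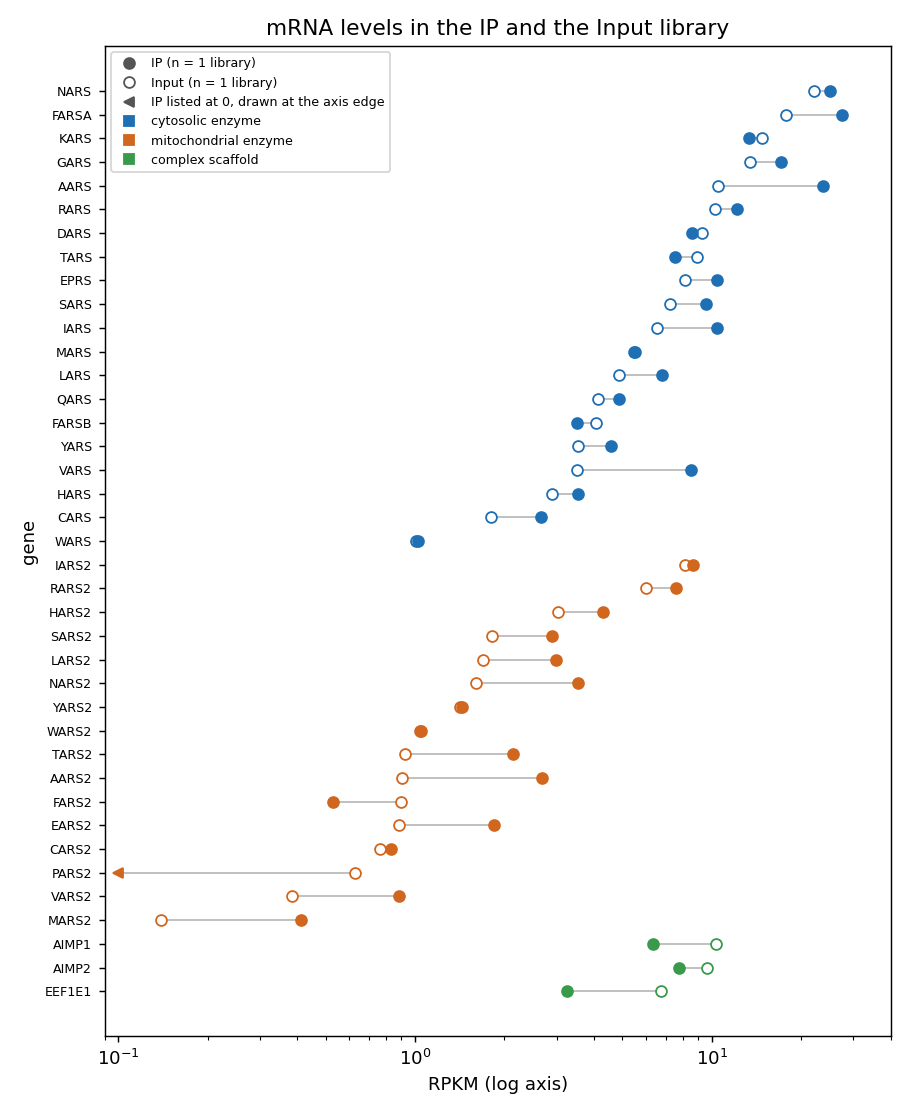
RPKM of each of the 39 members on a log axis, with filled points for the IP and open points for the Input (1 library each), grouped as cytosolic enzymes, mitochondrial enzymes and scaffolds. The cytosolic enzymes run from 1.01 to 22.1 RPKM in the Input, all 3 scaffolds have the IP point to the left of the Input point, and PARS2, listed at 0 in the IP, is drawn as a triangle near the axis edge.

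Differences were taken from RPKM with a pseudocount of 1, as log2((IP + 1)/(Input + 1)), and a member was called when it was 2-fold or more apart between the libraries on that scale. Of the 34 members past the filter, 2 were called higher (AARS and VARS) and 0 lower, while 9.88% of all 9880 features past the filter were called higher and 6.83% lower. Among the 7626 protein-coding genes the shares were 5.81% and 5.19%, and among the 9175 features with at least 20 reads in both libraries together they were 6.89% and 6.5%. Both shares of members, read against that background, are not a result about the synthetases as a family. The log2 ratio of the 34 members had a median of 0.29, against 0.17 for all features, with a lowest value of -0.87 and a highest of 1.10. Without a pseudocount, the counting interval of the RPKM ratio lay above 1 for 15 of the 34 (background 36.1%) and below 1 for 2 (background 20.1%). The same shares were 37.3% and 21% of the protein-coding genes and 35.7% and 21.3% of the features with at least 20 reads. Centred on the median of all features, AARS and VARS were no longer called, EEF1E1 was called lower, and the intervals lay above 1 for 10 members and below 1 for 5. That median was taken with the pseudocount, also where the intervals, which have none, were centred on it.

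**Figure D2:**
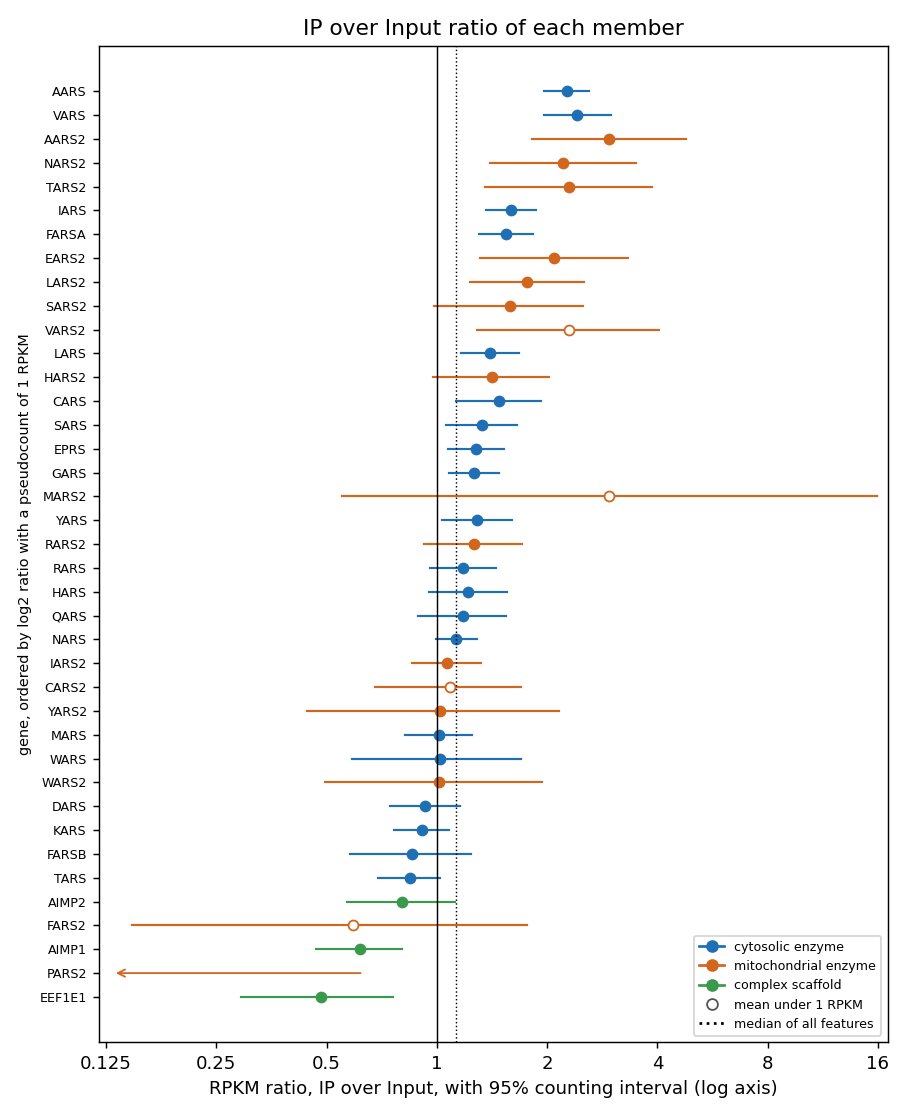
RPKM ratio of IP over Input for each member on a log axis with its 95% counting interval, ordered by the log2 ratio with a pseudocount. Open points mark members with a mean under 1 RPKM, and the arrow of PARS2 starts at the bound given by 3 IP reads. The dotted line is the median of all features at 1.13, taken with the pseudocount, unlike the points. AARS, VARS and 6 mitochondrial enzymes (AARS2, NARS2, TARS2, EARS2, VARS2 and MARS2) sit above 2 on this scale without a pseudocount, and the 3 scaffolds sit below 1. VARS2 and MARS2 are under the filter, and MARS2 has 4 reads in each library. The share of all features above 2 on this scale was not counted.

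AARS, which charges tRNA with alanine, had the highest log2 ratio, 1.10. The gene lies on chromosome 16 (70252295 to 70289543, minus strand) and rested on 344 IP reads (23.8 RPKM) and 450 Input reads (10.5 RPKM). Its RPKM ratio was 2.26 (1.96 to 2.61). VARS, the valyl enzyme, lies on chromosome 6 (31777518 to 31795953, minus strand). It rested on 166 IP reads (8.48 RPKM) and 203 Input reads (3.51 RPKM), a ratio of 2.42 (1.96 to 2.98). For both genes, the interval excludes the median ratio of all features, 1.13, and the lower end falls just under 2. That median was taken with the pseudocount and the intervals without it, so the 2 scales differ.

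Next among the cytosolic enzymes came IARS, the isoleucyl enzyme, with 249 IP reads (10.4 RPKM) and 461 Input reads (6.54 RPKM) and a ratio of 1.60 (1.36 to 1.87). FARSA, with 216 IP and 413 Input reads, had a ratio of 1.55 (1.31 to 1.83). At the other end of the cytosolic enzymes were TARS, the threonyl enzyme, with a ratio of 0.843 (0.692 to 1.02), FARSB with 0.857 (0.581 to 1.24), KARS with 0.909 (0.763 to 1.08) and DARS, the aspartyl enzyme, with 0.929 (0.744 to 1.15). TARS rested on 138 IP reads (7.50 RPKM) and 484 Input reads (8.89 RPKM), FARSB on 38 and 131 reads, and KARS on 175 IP reads (13.4 RPKM) and 569 Input reads (14.7 RPKM). All 4 of these intervals include 1, but those of TARS and KARS end below 1.13, so both lie below 1 when centred on it. The value 1.13 is the median ratio of all features with the pseudocount, which the intervals do not use. Intervals above 1 were found for 10 of the 20, against 36.1% of all features.

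The cytosolic enzymes as a group made up 0.0972% of IP reads (95% Wilson interval 0.0939 to 0.101) and 0.0751% of Input reads (0.0734 to 0.0769), a ratio of 1.29 (1.24 to 1.35). Their median log2 ratio was 0.26, against 0.17 for all features. Of the 20, 16 had a higher RPKM in the IP and 13 lay above the median of all features. The share of all features higher in the IP was not counted. By class, the 9 class I enzymes had a median of 0.30, with all 9 above 0 and 7 above the median of all features. The 10 class II enzymes had a median of 0.19, with 6 above 0 and 5 above the median of all features. EPRS, whose chain joins an enzyme of each class, had 10.4 RPKM (IP) and 8.10 RPKM (Input), a ratio of 1.28 (1.07 to 1.53).

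The genes for the 2 subunits of the phenylalanyl enzyme differed. FARSA and FARSB encode the α and β chains, which the cytosolic enzyme contains in equal number. FARSA was at 27.5 RPKM (IP) and 17.8 RPKM (Input), FARSB at 3.50 RPKM (IP) and 4.09 RPKM (Input). The intervals of their ratios, 1.31 to 1.83 and 0.581 to 1.24, do not overlap. The share of other gene pairs whose intervals stay apart was not counted, so this is not a result about the subunits. The FARSA mRNA has 61.4% GC and the FARSB mRNA 41.6%, and the part of base composition in the difference was not tested. FARSA-AS1 overlaps FARSA by 25 bp on the opposite strand and had 41 IP and 68 Input reads.

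All 3 scaffold mRNAs had a ratio under 1, a direction whose share over all features was not counted. The interval lay below 1 for 2 of the 3, against 20.1% of all features. EEF1E1, which ties the methionyl enzyme into the complex, lies on chromosome 6 (8073360 to 8102578, minus strand). It rested on 22 IP reads (3.24 RPKM) and 135 Input reads (6.73 RPKM), 2.08-fold lower (1.32 to 3.42) and -0.87 on the pseudocount log2 scale, past the call only when centred on the median of all features, scaled by trimmed mean, taken with a pseudocount of 0.1 RPKM or called at 1.5-fold. AIMP1, the scaffold that binds the arginyl enzyme, lies on chromosome 4 (106315544 to 106349226, plus strand). It rested on 68 IP reads (6.35 RPKM) and 326 Input reads (10.3 RPKM), 1.62-fold lower (1.25 to 2.14). AIMP2, the scaffold that binds the lysyl enzyme, had 46 and 169 reads, at 7.77 RPKM (IP) and 9.66 RPKM (Input). It was 1.24-fold lower, with an interval (0.892 to 1.76) that includes no difference.

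Summed over the 3 scaffolds, the ratio of read shares was 0.638 (0.526 to 0.769), below that of the 8 enzymes of the complex at 1.18 (1.11 to 1.27). Among those 8, IARS, LARS at 1.40 (1.16 to 1.68) and EPRS had intervals above 1, and none had one below 1. Such intervals were found for 36.1% and 20.1% of all features, so these counts are not a result about the complex. MARS, the methionyl enzyme, was at 5.52 RPKM (IP) and 5.46 RPKM (Input). RARS, the arginyl enzyme, was at 12.2 RPKM (IP) and 10.3 RPKM (Input), and QARS, the glutaminyl enzyme, at 4.88 and 4.15 RPKM. KARS and DARS were lower in the IP within counting error. The median log2 ratio of all 11 genes of the complex was 0.01, which is below the 0.17 of all features and becomes negative (-0.16) when centred on it. Without the scaffolds, the 8 enzymes of the complex had a median of 0.21. The 12 cytosolic enzyme genes outside the complex had a median of 0.31 and a ratio of read shares of 1.38 (1.30 to 1.45). Those 12 include the called genes AARS and VARS, and the difference between enzymes inside and outside the complex was not tested.

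Exons of the scaffold genes overlap those of other genes, and no protocol in the labels says whether the libraries keep strand, so reads from overlapping genes cannot be told apart. EEF1E1 shares 393 bp, 18.7% of its counted length, with the readthrough EEF1E1-BLOC1S5 on the same strand, which had 36 IP and 167 Input reads and a ratio of 0.637 (0.432 to 0.918). AIMP2 shares 532 bp (28.9%) with EIF2AK1 on the opposite strand, whose ratio was 0.763 (0.650 to 0.893). AIMP1 shares 387 bp (11.6%) with TBCK on the opposite strand, which had 15 and 22 reads and a ratio of 2.02 (0.972 to 4.07). The part of these neighbours in the scaffold values was not tested. In all, 16 of the 39 members overlap another listed feature in GENCODE v29, and 6 do so over more than 10% of their counted length.

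The mitochondrial enzymes were lower in level and less precise: the group took 525 IP and 1089 Input reads. Its read share was 0.0163% in the IP and 0.0114% in the Input, a ratio of 1.42 (1.28 to 1.58), whose interval overlaps that of the cytosolic enzymes. RPKM was higher in the IP for 14 of the 16 genes, a direction whose share over all features was not counted. Over all 16 the median log2 ratio was 0.35. Over the 11 past the filter it was 0.46, but AARS2, EARS2 and TARS2 passed only through their IP value, so the second median is not independent of the direction.

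AARS2, the mitochondrial alanyl enzyme on chromosome 6 (44299654 to 44313326, minus strand), had 37 reads in each library, at 2.67 RPKM (IP) and 0.904 RPKM (Input), a ratio of 2.96 (1.82 to 4.79). NARS2, for asparagine, had 36 IP and 48 Input reads, at 3.55 and 1.60 RPKM, a ratio of 2.22 (1.40 to 3.49). TARS2, for threonine, had 28 and 36 reads, at 2.13 and 0.928 RPKM, a ratio of 2.30 (1.35 to 3.87). EARS2, which charges mitochondrial tRNAs with glutamate, had a ratio of 2.09 (1.31 to 3.32) and LARS2, for leucine, 1.77 (1.23 to 2.52). These 5 of the 11 past the filter have intervals above 1, against 36.1% of all features. Their log2 ratios with the pseudocount, 0.57 to 0.95, stayed under the call. AARS2, EARS2 and TARS2 passed the filter only through their IP value, so this count is not independent of the direction.

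At the low end past the filter, WARS2, YARS2 and IARS2, the enzymes for tryptophan, tyrosine and isoleucine, had ratios of 1.01 (0.494 to 1.94), 1.02 (0.443 to 2.15) and 1.06 (0.854 to 1.32). WARS2 rested on 13 IP reads (1.05 RPKM) and 38 Input reads (1.04 RPKM), YARS2 on 10 (1.44 RPKM) and 29 (1.42 RPKM), and IARS2 on 116 (8.65 RPKM) and 322 (8.12 RPKM). None of these 3 showed a difference detectable at this depth. RARS2, for arginine, had 7.57 RPKM (IP) and 5.99 RPKM (Input), a ratio of 1.26 (0.923 to 1.71). SARS2, for serine, was at 1.58 (0.981 to 2.51). It shares 46.2% of its counted length with the readthrough AC011455.2, which was not analysed here.

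Among the 5 under the filter, PARS2, the mitochondrial prolyl enzyme, had 0 IP and 14 Input reads, where 4.74 IP reads would give a ratio of 1. Taking 3 IP reads as the limit that a count of 0 allows, and the 14 Input reads as free of error, it was at least 1.58-fold lower. With counting error in both libraries, the upper end of the ratio was 0.891. FARS2, for phenylalanine, had 4 and 20 reads, with a ratio of 0.591 (0.147 to 1.76), and MARS2, for methionine, 4 reads in each library, with a ratio of 2.96 (0.551 to 15.9), so neither direction was detectable at this depth. VARS2, for valine, had 24 and 31 reads and a ratio of 2.29 (1.29 to 4.03), and it shares 22.0% of its counted length with GTF2H4, listed at 16 and 13 reads. CARS2, for cysteine, had 28 and 76 reads and a ratio of 1.09 (0.680 to 1.70).

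Set side by side by amino acid, 17 pairings of a cytosolic with a mitochondrial enzyme gene can be formed, and in 11 both genes passed the filter. In the Input the cytosolic gene had the higher RPKM in 14 of the 17. The exceptions were HARS with HARS2, IARS with IARS2 and WARS with WARS2. These levels are per counted length, of which the reference mRNA makes up a smaller part in the cytosolic gene of each exception. As a part of the GENCODE v29 exon union, the reference mRNA was 31.1% for HARS and 67.2% for HARS2. It was 62.9% for IARS and 85.5% for IARS2, and 48.6% for WARS and 72.8% for WARS2. The counted length differs from that union for HARS (8436 and 7853 bp) and HARS2 (3408 and 3736 bp). The order within these pairs is therefore not settled by RPKM. EPRS and FARS2 each enter more than 1 of the 17 pairings. The ratio of IP over Input had intervals that do not overlap in 3 of the 11. How often this happens between other genes was not counted, so the count is not a result about these pairs. AARS2, EARS2 and TARS2 are in these 11 only through their IP value, so the counts over the 11 are not independent of the direction. Threonine showed the widest gap, with TARS at 0.843 (0.692 to 1.02) and TARS2 at 2.30 (1.35 to 3.87). For asparagine, NARS was at 1.13 (0.994 to 1.29) and NARS2 at 2.22 (1.40 to 3.49). Isoleucine went the other way, with IARS at 1.60 (1.36 to 1.87) and IARS2 at 1.06 (0.854 to 1.32). The alanyl enzymes were both high, at 2.26 and 2.96, and so were the valyl enzymes VARS at 2.42 and VARS2 at 2.29, the latter under the filter.

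HARS and HARS2, the histidyl enzymes, lie head to head on chromosome 5 (140673904 to 140691862, minus strand, and 140691426 to 140699318, plus strand) and share 437 bp of exon in GENCODE v29. HARS had 3.53 RPKM (IP) and 2.90 RPKM (Input), and HARS2 had 4.28 RPKM (IP) and 3.02 RPKM (Input). Their ratios of 1.22 (0.950 to 1.55) and 1.42 (0.979 to 2.03) overlap, and both intervals include 1.

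**Figure D3:**
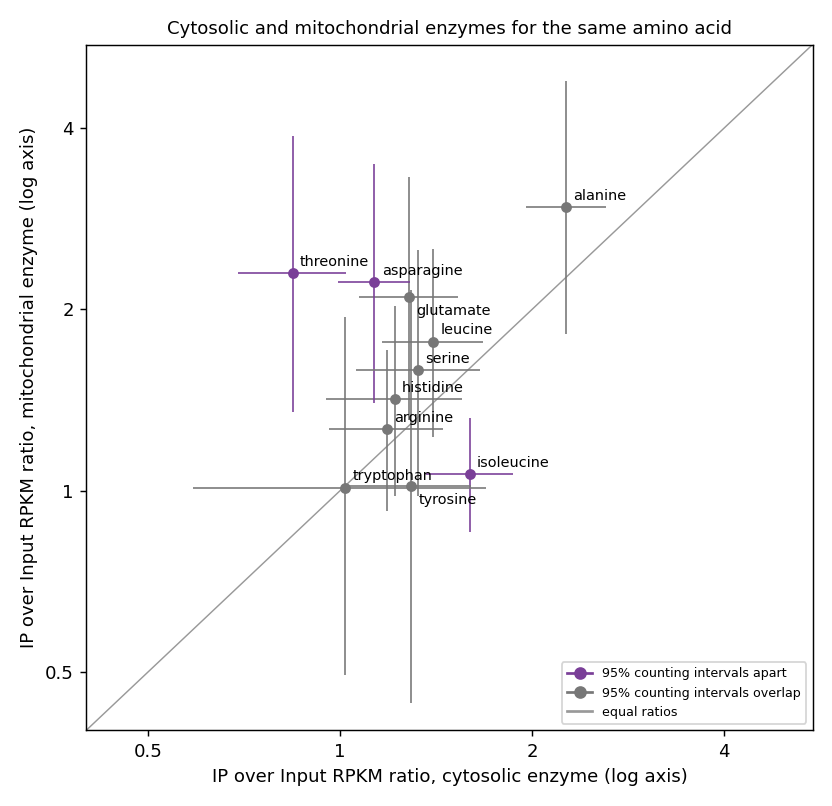
RPKM ratio of IP over Input for the mitochondrial enzyme (vertical, log axis) against the cytosolic enzyme (horizontal, log axis) of the same amino acid, for the 11 pairs with both genes past the filter, with 95% counting intervals. Threonine and asparagine lie above the line of equal ratios and isoleucine below it with intervals that do not overlap, and alanine is high on both axes.

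The 12 cytosolic genes known as ATF4 targets had a median log2 ratio of 0.32, with 8 intervals above 1. For the other 8 cytosolic genes the median was 0.20, with 2 intervals above 1. The share of all features with such an interval was 36.1%, and the difference between these subgroups was not tested. Besides AARS, the known targets include GARS, the glycyl enzyme, at 17.1 RPKM (IP) and 13.5 RPKM (Input), a ratio of 1.26 (1.08 to 1.48). SARS, the seryl enzyme, had a ratio of 1.33 (1.06 to 1.65), CARS, the cysteinyl enzyme, 1.48 (1.13 to 1.93) and YARS, the tyrosyl enzyme, 1.29 (1.03 to 1.60). WARS, the tryptophanyl enzyme, rested on 21 IP and 61 Input reads, with a ratio of 1.02 (0.589 to 1.69), and TARS was the known target with a log2 ratio under 0, at -0.22. The read shares of the 2 subgroups had ratios of 1.33 (1.26 to 1.40) and 1.23 (1.14 to 1.33), with overlapping intervals.

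Members with a long coding sequence had higher log2 ratios than those with a short one. Across the 34 members past the filter, Spearman's rho between the log2 ratio and coding length was 0.48 (Pearson's r 0.63 on log2 length). Across 7589 protein-coding genes rho was 0.57. Within the cytosolic enzymes rho was 0.47 (r 0.50) and within the mitochondrial enzymes 0.36 (r 0.36). These correlations are descriptions over genes that share both libraries, not over replicates. AARS2, EARS2 and TARS2 passed the filter only through their IP value, so those over members are not independent of the direction. In the tertile of genes with the shortest coding sequence (up to 987 bp), which holds the 3 scaffolds, the median log2 ratio of 2543 genes was -0.29. AIMP2 at -0.28 lay near that median, AIMP1 at -0.62 and EEF1E1 at -0.87 below it. In the tertile with the longest coding sequence, 2528 genes had a median of 0.50 and the 15 members there 0.39. That tertile holds AARS and VARS, and 12.2% of its genes were at least 2-fold higher.

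GC content of the mRNA moved with the ratio as well, with a rho of 0.53 over the 34 members and 0.27 over the protein-coding genes. The members in the tertile of genes with the lowest GC (up to 44.2%) had a median log2 ratio of 0.08 (13 members), those in the middle tertile 0.32 (13 members) and those in the highest tertile 0.53 (8 members). The corresponding medians of all protein-coding genes in those tertiles were -0.03, 0.17 and 0.36. AARS2 and TARS2, in the highest tertile, and EARS2, in the middle one, passed the filter only through their IP value. The rho and the medians of the members are therefore not independent of the direction. VARS, at 62.6% GC, and AARS2, at 59.3%, are in the highest tertile, and EEF1E1, at 36.9%, and AIMP1, at 35.6%, in the lowest. The parts of length and base composition in the values of single members were not tested. The length of the 3' UTR had a rho of -0.05 over the members and 0.09 over the protein-coding genes. The Input level, which is also the divisor of the ratio, had a rho of -0.32 over the members and -0.39 over the protein-coding genes. Its rho was -0.02 within the cytosolic and -0.45 within the mitochondrial enzymes.

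**Figure D4:**
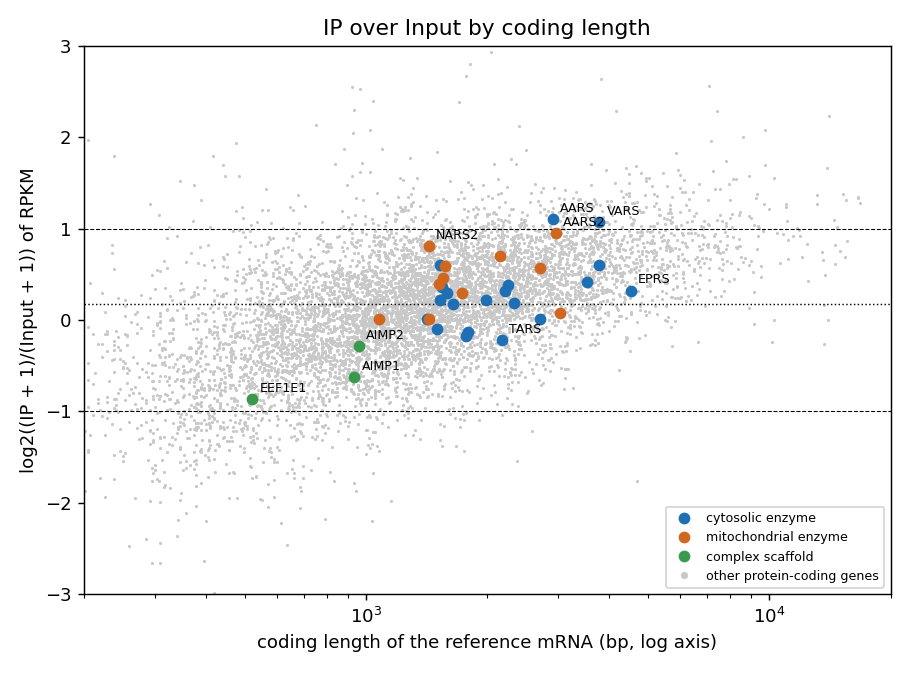
Log2 ratio of IP over Input with a pseudocount of 1 RPKM against coding length on a log axis, for the 34 members past the filter (coloured by group) and 7561 other protein-coding genes (grey, 41 outside the axes). Dashed lines mark 2-fold and the dotted line the median of all features, 0.17. The scaffolds lie at the short, low end and AARS, VARS and AARS2 at the long, high end of the grey cloud.

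Genes that act with the synthetases were read from lists of related functions. Of 8 further aminoacylation genes past the filter (14 listed), 0 were called in either direction, from AARSD1, for an alanyl-tRNA editing protein, at 1.46 (0.929 to 2.24) and TARSL2, for a second threonyl enzyme, at 1.23 (0.653 to 2.21) to DTD2, for a tRNA proofreading deacylase, at 0.588 (0.511 to 0.674) and YRDC, for a tRNA-modifying enzyme, at 0.406 (0.155 to 0.898). Intervals lay above 1 for 0 and below 1 for 3 of those 8, against 36.1% and 20.1% of all features. The shares of all features called were 9.88% higher and 6.83% lower.

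Of 16 genes of tRNA end processing, splicing and export past the filter, 1 was called higher and 0 lower, against 9.88% and 6.83% of all features. The gene called was ELAC2, which trims the 3' ends of tRNA precursors, at 11.2 RPKM (IP) and 4.70 RPKM (Input), a ratio of 2.38 (1.99 to 2.85). XPOT, named after its value was seen, the exporter of tRNAs from the nucleus, was at 0.882 (0.757 to 1.03). In the 11 genes for delivery of charged tRNA to the ribosome, 0 were called higher and 1 lower, against the same 9.88% and 6.83%. The gene called was that of the elongation factor EEF1B2, which was 2.22-fold lower (1.98 to 2.48). Of 22 genes of the amino acid stress response past the filter, 2 were called higher and 0 lower, against 9.88% and 6.83% of all features. Intervals lay above 1 for 8 and below 1 for 6 of the 22, against 36.1% and 20.1% of all features. ATF4 itself, named after its value was seen, was among the latter at 41.1 RPKM (IP) and 72.8 RPKM (Input), a ratio of 0.565 (0.501 to 0.635). GCN1, an activator of the kinase that senses uncharged tRNA, had 3.83 RPKM (IP) and 1.23 RPKM (Input), a ratio of 3.11 (2.39 to 4.06). CEBPB, a transcription factor gene, had 10.6 RPKM (IP) and 4.40 RPKM (Input), a ratio of 2.42 (1.72 to 3.38). EIF2AK4, which encodes that kinase and was also named after its value was seen, was at 1.08 (0.766 to 1.49), and the list's median log2 ratio was 0.14, against 0.17 for all features.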

How the data were processed

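The deposited table holds, per the file headers, RPKM values of the IP and the Input library for each feature and the authors' own log2 fold change. Build hg38 and FastQC 0.12.0 are given in the submitters' processing notes. The sources used here give no aligner, counting program or annotation. Whole reads were recovered from the deposited RPKM and log2 values for 14913 of 14914 features (tolerance 0.01 reads), a step tested on simulated data. Counted lengths were recovered with the reads and equal the GENCODE v29 exon union for 35 of the 39 members. Coordinates and mRNA sequences came from GENCODE v29 (GRCh38), matched by symbol for all 39 members. Log2 ratios used a pseudocount of 1 RPKM and features whose mean reached 1 RPKM. Ratio intervals are exact conditional (Clopper-Pearson) 95% intervals, and RPKM intervals are exact Poisson. No test across libraries was possible with 1 library per group. Full values are given for called members, the 3 highest and 3 lowest enzymes of each compartment, scaffolds, phenylalanyl subunits and pairs, and further members were added after their values were seen. The members and lists were chosen with earlier results of these data known. Python 3.11.15 with SciPy 1.17.1 was used.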

Additional observations from a re-analysis of the deposited data

How the results depend on the processing

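The number of members called at least 2-fold higher (2) became 5 with a pseudocount of 0.1 RPKM, 0 with a pseudocount of 5 RPKM, 0 when centred on the median of all features, 0 with trimmed mean scaling, 8 at 1.5-fold and 0 at 4-fold. AARS and VARS were among those called in every setting listed here that called any. The number called lower (0) became 1 with a pseudocount of 0.1 RPKM, 1 when centred, 1 with trimmed mean scaling and 2 at 1.5-fold. EEF1E1 was in each of these. Intervals above 1 (15 members) became 8 with a filter of 5 RPKM, which leaves fewer members, and 9 with trimmed mean scaling. Intervals below 1 (2 members) became 1 with a filter of 5 RPKM, 6 with trimmed mean scaling and 5 when centred. The median of the multisynthetase complex (0.01) became -0.16 when centred and -0.19 with trimmed mean scaling. The cause of these changes was not tested beyond the settings themselves. The cytosolic median (0.26) became 0.09 when centred and 0.06 with trimmed mean scaling, and the mitochondrial median (0.46) 0.19 with a filter of 5 RPKM and 0.21 with a pseudocount of 5 RPKM, all above 0 as in the other alternatives run. The filter of 5 RPKM leaves only RARS2 and IARS2 of the mitochondrial enzymes, and both their intervals include 1. Requiring 20 reads, chosen after the data were seen, and scaling outside the mitochondrially encoded genes moved none of these counts. Most mitochondrial members had under 100 Input reads, which limits their precision. No paired analysis was possible because each group holds 1 library.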
